A study of Homo sapiens with 12 samples.

Results

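The comparison described here sets RPMI2650 cells exposed to either of 2 short perfluoroalkyl acids, taken as 1 side, against unexposed cells of the same line. It used all 12 RNA-seq libraries of the series: 4 control libraries, 4 libraries of cells given 1 µM perfluorobutanoic acid (PFBA) and 4 of cells given 1 µM perfluorohexanoic acid (PFHxA). Both exposures lasted 7 days and were done on wild-type cells at an air-liquid interface, where the upper surface faces air and medium is supplied from below. The controls are labelled by that word alone, with no day, vehicle or interface recorded for them, so that their match in culture time could not be checked. Each acid had equal weight on the exposed side, and a shared call was a gene that passed the pooled test and whose fitted level moved the same way with each acid. RPMI2650 is a line from a tumour of the nasal septum and is used as a model of nasal epithelium. Nothing in the labels ties the 4 libraries of a group to separate cultures, and p-values then measure only the spread between these libraries, which may be technical.

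Perfluoroalkyl carboxylic acids carry a chain of fully fluorinated carbons that ends in a carboxyl group. They are used as surfactants, resist breakdown and resemble fatty acids. PFBA and PFHxA are short members that replaced longer ones, and PFHxA has the longer chain of the pair. The nuclear receptor PPARA, which controls fatty acid oxidation in liver, is the best known target of longer acids of the class, and effects on lipid handling, stress signalling and mitochondria have been studied in many cell types.

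The total count ran from 16941599 to 21508681 in the control libraries and from 18051645 to 21879105 in the exposed ones, and 16554 of the 50868 genes had enough counts to be tested. Levels are given as CPM, the count of a gene scaled to the depth of its library, with the mean ± SD over the 4 libraries of a group (n = 4). Of 10 epithelial markers, 9 averaged above 1 CPM, with KRT5 at 1921, KRT7 at 1318, KRT19 at 358 and EPCAM at 43.3 CPM in control, while CDH1 was at 8.46, CLDN4 at 1.57 and KRT14 at 0.553 CPM. Of 10 basal airway cell markers, 8 averaged above 1 CPM, with NOTCH1 at 555.6 and BCAM at 132.9 CPM in control. KRT5 and KRT14 are on this list too. The basal cell factor TP63 was at 1.90 CPM and KRT15 at 0.408 CPM in control. The basal list summed to 2560 to 2743 CPM in control and 2518 to 3062 CPM in exposed libraries. The epithelial list summed to 4063 to 4176 CPM in control and 3755 to 4443 CPM in exposed libraries. Defining markers of differentiated airway cells, TEKT1 and SNTN of ciliated cells and SCGB1A1 of secretory cells, had no count in any library, nor had SCGB3A1. Other members of those lists were measured: 7 of 11 ciliated cell markers averaged above 1 CPM, with TUBB4B at 283.5 and FOXJ1 at 7.76 CPM in control, and 5 of 10 secretory cell markers did, with TFF3 at 15.9 and AGR2 at 6.12 CPM. The ciliated list summed to 298.7 to 329 CPM in control and 278.1 to 339.7 CPM in exposed libraries, and the secretory list to 28.5 to 34.2 and 23.96 to 35.2 CPM. Of 11 mesenchymal markers 6 averaged above 1 CPM, with the intermediate filament VIM at 687.9, ACTA2 at 75.5 and PDGFRB at 25.98 CPM in control. That list summed to 720 to 968.5 CPM in control and 733.2 to 974.2 CPM in exposed libraries. The 9 immune markers summed to 1.94 to 2.89 CPM in control and 1.75 to 3.42 CPM in exposed libraries. Control d stood apart from the other controls: mitochondrial genes held 9.15% of its counts against 10.97% to 11.9% in control a, b and c, and its slope of gene level over transcript length was -0.0632 on the log2 scale per doubling of length, against -0.0199 to -0.00899 in those 3. Over all libraries the mitochondrial share was 10.9% ± 1.25 in control (SD, n = 4) and 11.98% ± 0.736 in exposed cells (SD, n = 8), with p = 0.129 by a two-sided exact permutation test that can go no lower than 0.00404. The slope over transcript length was -0.0273 ± 0.0244 in control (SD, n = 4) and 0.0136 ± 0.0162 in exposed libraries (SD, n = 8), which did not pass after adjustment (exact permutation p = 0.0162, adjusted p = 0.081 over 5 library measures), and the groups overlapped through an exposed library at -0.0208. The slope over GC content did not pass either (exact permutation p = 0.158), but that test pooled both acids, which were unlike in it. Per 10 points of GC content the slope was -0.0661 to -0.0132 in control and -0.0650 to 0.00417 with PFBA. With PFHxA it was 0.0706 to 0.104, above every other library. The mitochondrial share was 9.15% to 11.9% in control, 11.14% to 11.66% with PFBA and 11.71% to 12.91% with PFHxA.

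Of the 16554 genes, 433 (2.62%) passed the pooled test, 178 higher (1.08%) and 255 lower (1.54%) in exposed cells. All 178 higher genes and 248 of the lower ones moved the same way with each acid, which made 426 shared calls (2.57%, with 1.5% of tested genes lower). Both acids were set against the same 4 controls, and the genes were selected on the mean of both changes. This agreement in sign is therefore a description largely set by the rule. The changes were small. The median change of a shared call was 1.18-fold, 150 of 426 changed by at least 1.2-fold and 13 by at least 1.5-fold, and the largest change was 2.39-fold. None of them passed far from the threshold: the smallest adjusted p was 0.0276 and 139 of 426 lay between 0.04 and 0.05. At an unadjusted p under 0.05, 3282 genes were counted (19.8%), 1458 higher (8.81%) and 1824 lower (11%). These are the shares to set beside each list count at that cut. The last genes inside the threshold were EGR1 at an adjusted p of 0.0497, PI4KA at 0.0497 and TRIAP1 at 0.0497, and the first ones outside were LRRC55, PLXNA3 and LDHB, each at 0.0501; these 6 are named for their place beside the threshold. All 8 exposed libraries lay above all 4 controls for 183 genes (1.11%) and below them for 138 (0.834%), and among the shared calls this held for 91 higher and 64 lower genes. Genes named below for the largest shared change were taken from these 91 and 64, so their lack of overlap was set by the choice. Levels are of RNA in whole cultures, in which fewer cells of a kind and less RNA per cell cannot be told apart.

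The exposed side was not an even mixture of both acids. Against the same 4 controls, 1 gene passed with PFBA alone (0.00604%), and 2466 passed with PFHxA alone (14.9%). Of the shared calls, 177 of the 178 higher and 241 of the 248 lower genes also passed with PFHxA alone. The median log2 fold change of the higher calls was 0.14 with PFBA and 0.29 with PFHxA, and that of the lower calls -0.12 and -0.38. Both acids reached an unadjusted p under 0.05 for 130 of the 178 higher and 104 of the 248 lower calls, and the PFBA value was under 0.05 in size on the log2 scale for 5 and 48 of them. When a gene had to pass with each acid, none did (edgeR, larger of both p-values, smallest adjusted p 0.710), although 356 genes were higher (2.15%) and 329 lower (1.99%) at an unadjusted p under 0.05 with each. The plot of both changes shows this unequal pull.

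**Figure D1:**
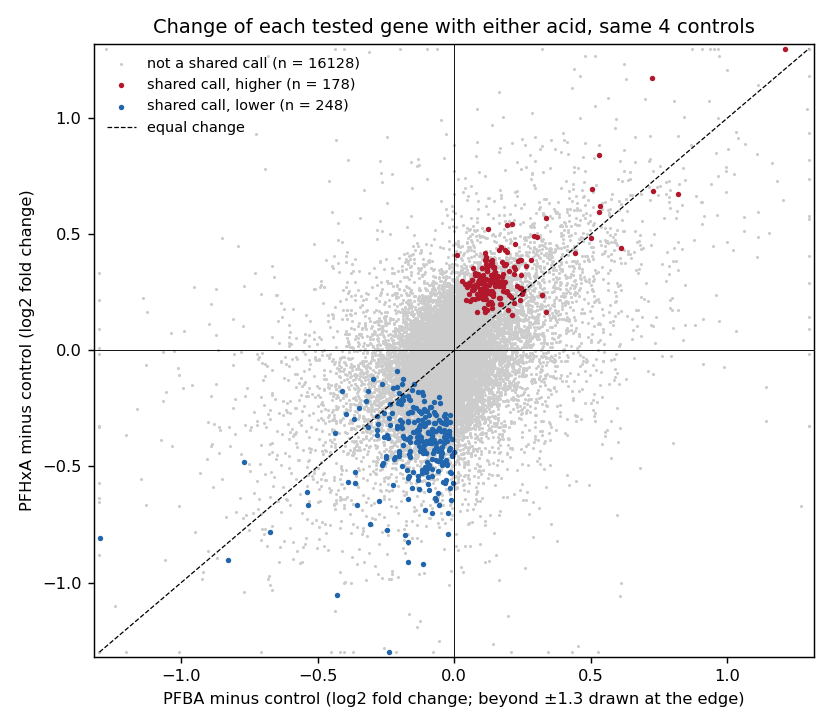
Log2 fold change of each tested gene with PFBA (horizontal) and with PFHxA (vertical), each against the same 4 control libraries, with the 178 higher shared calls in red, the 248 lower ones in blue and the others in grey. Most coloured points lie farther from 0 on the vertical axis than on the horizontal one, and 48 blue points have a PFBA value within 0.05 of 0.

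The number of calls depended strongly on single libraries. No gene passed without control a, PFHxA c or PFHxA d, 2 passed without control d (IGF2R and UBR4), 2 without PFBA a (JUN was 1 of them) and 9 without PFHxA b, while 717 passed without PFHxA a and 518 without PFBA d. The number at an unadjusted p under 0.05 ran from 2490 to 3398 over the 12 fits, and all 426 shared calls kept their sign in each of them. Those calls were chosen on these same libraries, and the fits share most of their data. The kept sign therefore says little about stability. When the 8 exposed libraries were fitted as 1 group with no term for the acid, no gene passed (edgeR, smallest adjusted p 0.106; 2267 genes at an unadjusted p under 0.05). With each library's trend over transcript GC content and length removed, 7 genes passed. JUN kept its call in 8 of the 12 fits that left out 1 library, SLC7A5 and LAMA5 in 7, and GDF15 and MRPL1 in 6. Upper-quartile scaling turned the balance of calls to 235 higher and 182 lower shared calls, from 178 and 248.

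**Figure D2:**
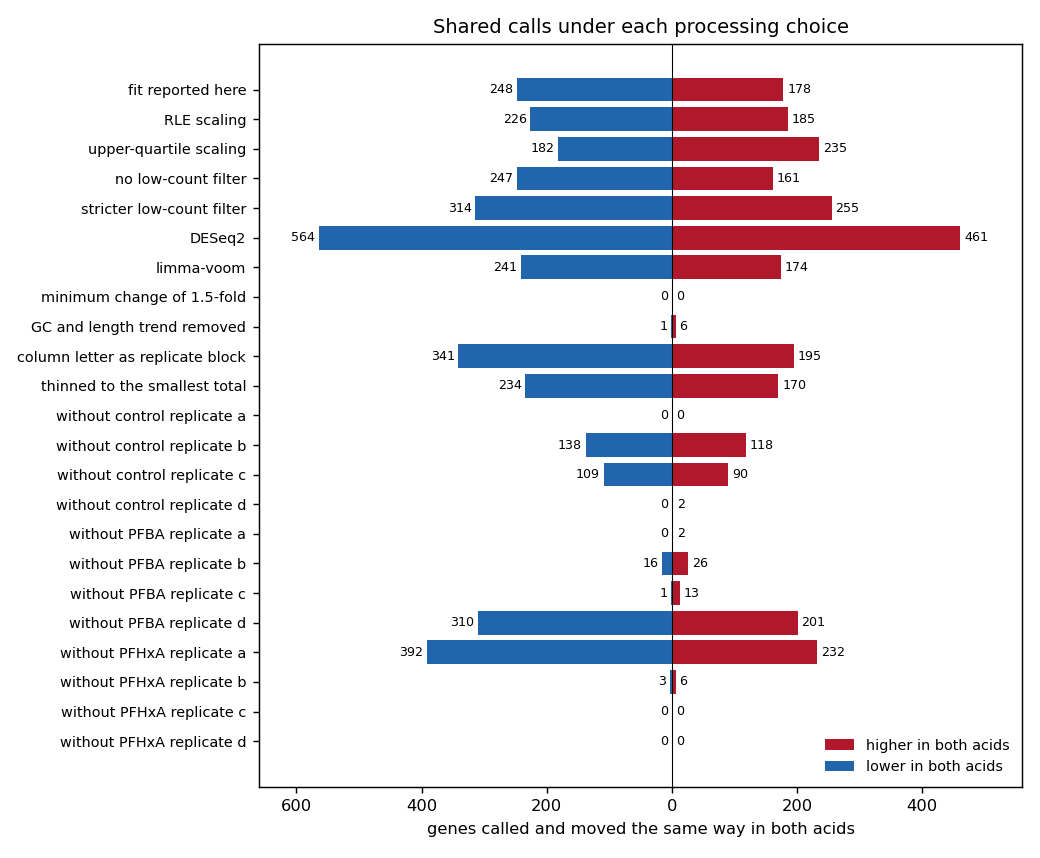
Number of shared calls, lower to the left and higher to the right, in the fit described here, under 10 other processing choices and with each of the 12 libraries left out. The fit used here gave 248 lower and 178 higher, DESeq2 gave 564 and 461, and the fits without control a, PFHxA c or PFHxA d gave 0.

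Transcription factors of the AP-1 family, which switch on within minutes of growth factor or stress signals, were among the genes that rose. JUN (chr1:58780788-58784327, minus strand, GRCh38), the central partner of that family, was at 49.95, 49.9, 47.7 and 48.6 CPM in control, 55.3, 64.4, 56.2 and 62.7 CPM with PFBA and 62.3, 65.7, 65.4 and 63.6 CPM with PFHxA. Every exposed library was above every control, which the naming rule required (log2 fold change 0.34, SE 0.0463, adjusted p = 0.0276, edgeR as in all such values here). Removing the GC and length trend left JUN called, with log2 fold changes of 0.29 with PFBA and 0.30 with PFHxA. FOSL2, a FOS-type partner, was at 503 ± 20.7 CPM in control, 539 ± 21.2 CPM with PFBA and 595 ± 9.596 CPM with PFHxA (log2 fold change 0.17, adjusted p = 0.0336), and its exposed libraries overlapped the controls. JUND rose by less, from 226 ± 3.76 CPM to 233 ± 8.09 CPM with PFBA and 262 ± 5.57 CPM with PFHxA (log2 fold change 0.13, adjusted p = 0.0465). Its rise was mostly that of PFHxA, at 0.21 against 0.04 with PFBA (adjusted p of the difference 0.00878), and its PFBA libraries overlapped the controls. With the GC and length trend removed, FOSL2 and JUND were at 0.08 and 0.10 and did not pass (adjusted p = 0.196 and 0.195). EGR1, an early growth response factor, was the last gene inside the threshold (log2 fold change 0.25). Of the 26 tested members of the immediate early list, 4 rose and none fell, and the list's median log2 fold change was 0.10, beside -0.01 over all tested genes. Higher shared calls made up 1.08% of all tested genes and lower ones 1.5%, which are the shares to set beside each list count.

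Of 18 tested targets of TGF-beta and YAP, 2 rose, 1 fell and 16 had a higher fitted level, with a median of 0.15. Over all tested genes 1.08% rose and 1.5% fell. SMAD7, an inhibitor of TGF-beta signalling that the pathway itself induces, was higher in all 8 exposed libraries (61.9 to 67.04 CPM) than in control (55.6 to 60.9 CPM; log2 fold change 0.14, adjusted p = 0.0491). ID3, a repressor of differentiation factors, fell: it was at 115, 129.5, 121 and 129 CPM in control, 104, 108, 107 and 105 CPM with PFBA and 108, 109.5, 111 and 114 CPM with PFHxA (log2 fold change -0.19, SE 0.0371, adjusted p = 0.0302), with no overlap.

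**Figure D3:**
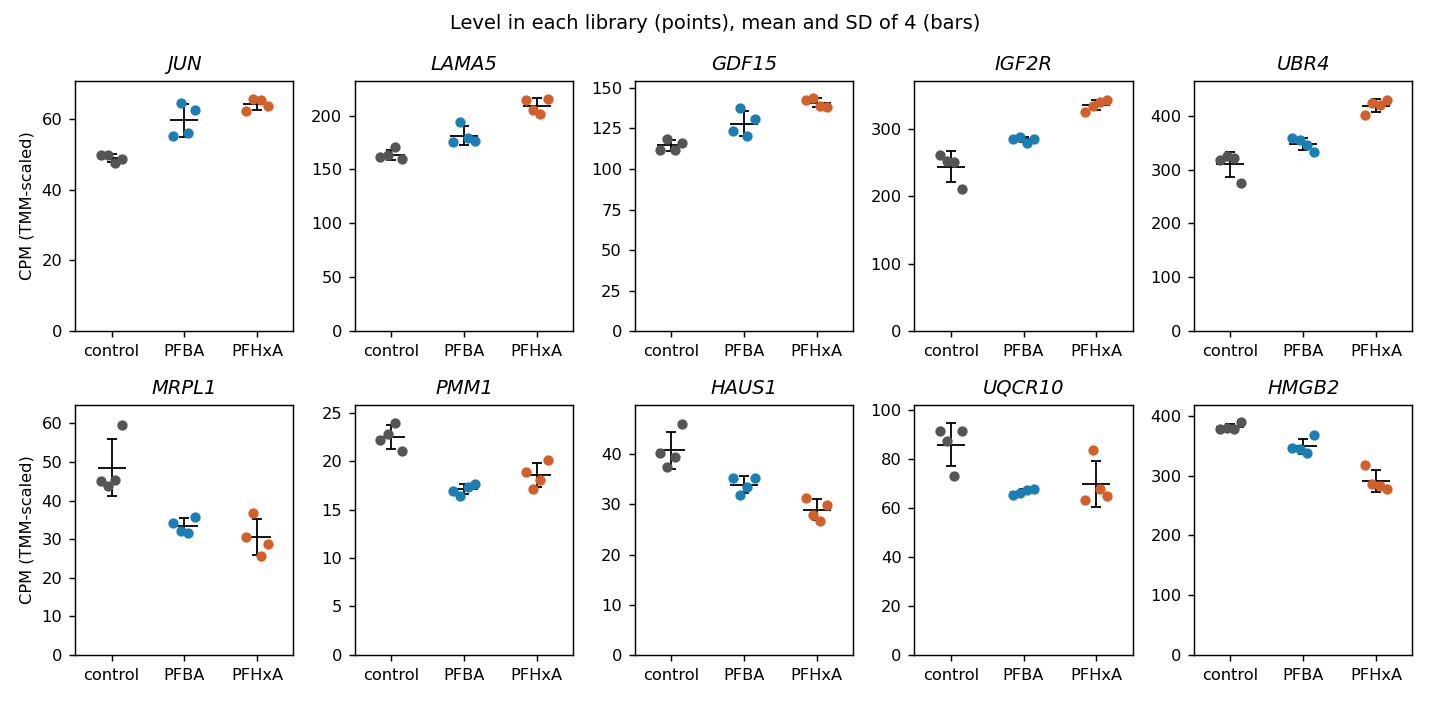
CPM in each of the 12 libraries for 5 genes that rose (upper row) and 5 that fell (lower row), with the mean and SD of each group of 4; all axes start at 0. The 8 exposed libraries lie beyond all 4 controls for each gene except UQCR10, where PFHxA b at 83.6 CPM is above control c at 73.0 CPM.

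Several genes with a large rise were at low levels. The rule that named them required that exposed and control libraries not overlap. AHR, the receptor for dioxins and other aromatic compounds, was at 1.95 ± 0.508 CPM in control, 3.43 ± 0.486 CPM with PFBA and 3.09 ± 0.346 CPM with PFHxA (log2 fold change 0.75, SE 0.166, adjusted p = 0.0382), with no overlap between exposed and control libraries. TNFAIP3, the enzyme A20 that restrains NF-kB signalling, was at 2.099, 2.13, 1.83 and 2.102 CPM in control, 2.87, 2.86, 2.89 and 2.96 CPM with PFBA and 2.895, 2.8001, 3.02 and 2.72 CPM with PFHxA (log2 fold change 0.49, SE 0.0969, adjusted p = 0.0322). The spread of TNFAIP3 within each group was small beside the step from control to exposed. MYO10, a motor of filopodia, was at 1.899 ± 0.245 CPM in control, 3.14 ± 0.492 CPM with PFBA and 3.05 ± 0.513 CPM with PFHxA (log2 fold change 0.71, adjusted p = 0.0356). CLSTN2, a calsyntenin of the cell surface, was at 2.06 ± 0.420 CPM in control, 3.001 ± 0.388 CPM with PFBA and 3.19 ± 0.227 CPM with PFHxA (log2 fold change 0.58, adjusted p = 0.0475), and its call was lost in each of the 12 fits that left out a library. AHR, TNFAIP3, MYO10 and CLSTN2 were all below 5 CPM, and in none of these 4 did the acids differ by an adjusted p under 0.05.

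MSN, or moesin, links actin to the plasma membrane, and was at 14.7 ± 1.796 CPM in control, 18.6 ± 1.01 CPM with PFBA and 21.8 ± 2.22 CPM with PFHxA (log2 fold change 0.45, adjusted p = 0.0287). HECTD4, a HECT-domain ubiquitin ligase, was at 75.2 ± 6.06 CPM in control, 92.7 ± 6.82 CPM with PFBA and 105 ± 11.6 CPM with PFHxA (log2 fold change 0.39, adjusted p = 0.0287). The antisense RNAs PAX8-AS1, at 9.58 ± 1.497 CPM in control, 13.9 ± 2.55 CPM with PFBA and 17.2 ± 2.16 CPM with PFHxA, and BACE1-AS, at 2.24 ± 0.111 CPM in control, 3.25 ± 0.596 CPM with PFBA and 3.39 ± 0.323 CPM with PFHxA, also rose (adjusted p = 0.0287 and 0.0397). The strand setting of the counting is not given in the sources used here, so reads of either RNA and of the gene it overlaps cannot be told apart.

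IGF2R and UBR4 were chosen here after their values were seen, as the only genes that passed without control d. IGF2R (chr6:159969099-160113507, plus strand), the receptor that clears IGF2 and carries mannose 6-phosphate enzymes to lysosomes, was at 262, 252, 251 and 211 CPM in control, 285, 288, 279 and 285 CPM with PFBA and 324, 334, 340.0 and 342 CPM with PFHxA (log2 fold change 0.34, SE 0.0489, adjusted p = 0.0276). The order control, PFBA, PFHxA held for every library of the 3 groups, and control d was the lowest library. Without control d the log2 fold change was 0.28 (adjusted p = 0.0117). UBR4, a very large ubiquitin ligase, showed the same order, at 310.1 ± 23.5 CPM in control, 348 ± 10.97 CPM with PFBA and 419 ± 11.7 CPM with PFHxA (log2 fold change 0.30, adjusted p = 0.0276; 0.25 without control d, adjusted p = 0.0472). The longest transcripts of both are long, 14044 nt for IGF2R and 15906 nt for UBR4, and with the GC and length trend removed they still passed at 0.23 and 0.18.

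Genes of the basement membrane and its neighbours formed the list with the most rises. Of 32 tested laminins and other matrix proteins, 8 rose and none fell, where 1.08% of all tested genes rose. A higher fitted level was seen in 28, and the median was 0.18 (0.12 with PFBA, 0.25 with PFHxA). LAMA5 (chr20:62307955-62367312, minus strand), the alpha chain of epithelial laminins, was at 162, 163, 170.4 and 159 CPM in control, 176, 194, 179 and 176 CPM with PFBA and 215, 205, 202 and 215 CPM with PFHxA (log2 fold change 0.25, SE 0.0371, adjusted p = 0.0276). All exposed libraries were above the controls, and the PFHxA libraries were above the PFBA ones. AGRN, the heparan sulfate proteoglycan agrin, was at 228 ± 9.89 CPM in control, 248 ± 12.03 CPM with PFBA and 291 ± 3.27 CPM with PFHxA (log2 fold change 0.23, adjusted p = 0.0276). HSPG2, the proteoglycan perlecan, was at 259 ± 27.97 CPM in control, 296 ± 21.4 CPM with PFBA and 377 ± 11.3 CPM with PFHxA (log2 fold change 0.37, adjusted p = 0.0276), and fibronectin, FN1, was at 52.4 ± 3.703 CPM in control, 58.3 ± 2.42 CPM with PFBA and 64.8 ± 4.06 CPM with PFHxA (log2 fold change 0.23, adjusted p = 0.0409); both are named as further members of the list after their values were seen. FBN1, FBN2 and LAMB2 were also called. Of 22 tested collagens, 1 rose, COL4A2, a chain of basement membrane collagen, and 21 had a higher fitted level, with a median of 0.14. No integrin of 12 passed (edgeR; 3 at an unadjusted p under 0.05, all higher, and 2 by DESeq2), with a median of 0.15. Control d had the lowest median of all 12 libraries in the matrix and collagen lists, -0.16 and -0.13 from the control mean. Without it the matrix median was 0.14 and the collagen median 0.07, and with the trend also removed they were 0.09 and -0.00. With only the GC and length trend removed, LAMA5 was at 0.09 and AGRN at 0.10, and neither passed (adjusted p = 0.190 and 0.179).

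Of 19 tested genes of the Notch pathway, by which neighbouring cells set each other's fate, 4 rose and none fell. The 4 were 3 receptors and 1 ligand, where 1.08% of all tested genes rose. NOTCH3 was at 70.7 ± 4.802 CPM in control, 76.6 ± 3.98 CPM with PFBA and 93.6 ± 4.08 CPM with PFHxA (log2 fold change 0.26, adjusted p = 0.0302). NOTCH1 was at 556 ± 39.4 CPM in control, 603 ± 37.6 CPM with PFBA and 719 ± 21.5 CPM with PFHxA (log2 fold change 0.25, adjusted p = 0.0329). JAG1, a ligand, was at 79.2, 76.5, 76.5 and 71.9 CPM in control, 85.1, 88.7, 85.2 and 82.7 CPM with PFBA and 84.6, 88.7, 89.2 and 93.1 CPM with PFHxA (log2 fold change 0.20, SE 0.0383, adjusted p = 0.0317). JAG1 was above every control in every exposed library, while NOTCH1, NOTCH3 and NOTCH2, the other member called, overlapped. The log2 fold change of NOTCH3 was 0.11 with PFBA and 0.40 with PFHxA (adjusted p of the difference 0.00667). That of NOTCH1 was 0.12 and 0.37 (adjusted p of the difference 0.0115). With the GC and length trend removed, NOTCH3, NOTCH1 and JAG1 were at 0.12, 0.10 and 0.13. None of them then passed (adjusted p = 0.176, 0.143 and 0.107). The median of the list was 0.08, and 8 of its 19 members had a lower fitted level.

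Targets of ATF4, the factor of the integrated stress response that raises amino acid uptake and synthesis, held 4 rises and no fall among 32 tested members, with a median of 0.06. Rises made up 1.08% of all tested genes. SLC7A5, the large neutral amino acid carrier LAT1, was at 142, 144, 148.99 and 144 CPM in control, 149.3, 156, 151 and 149.7 CPM with PFBA and 183, 183, 192 and 182 CPM with PFHxA (log2 fold change 0.21, SE 0.0301, adjusted p = 0.0276). Its rise was mostly that of PFHxA: the log2 fold change was 0.07 with PFBA and 0.36 with PFHxA, although the lowest PFBA library was just above the highest control. SLC7A1, the cationic amino acid carrier, was at 269 ± 13.6 CPM in control, 294 ± 6.05 CPM with PFBA and 331 ± 8.24 CPM with PFHxA (log2 fold change 0.22, adjusted p = 0.0276). GDF15 (chr19:18374731-18389176, plus strand), a stress hormone of the TGF-beta family, was at 112, 119, 112 and 116 CPM in control, 123, 137, 120.3 and 131 CPM with PFBA and 143, 144, 139 and 138 CPM with PFHxA (log2 fold change 0.23, SE 0.0394, adjusted p = 0.0276). GDF15 was above all controls in each exposed library and kept its value with the GC and length trend removed (0.23, adjusted p = 0.0448). With that trend removed, SLC7A5 and SLC7A1 had log2 fold changes of 0.13 and 0.12 and did not pass (adjusted p = 0.0762 for each). TRIB3 was the other member called. SLC38A2, a further amino acid carrier and ATF4 target, passed when that trend was removed (0.21, adjusted p = 0.0460) and not otherwise (log2 fold change 0.13, adjusted p = 0.0826); it is named for this reason. Of 20 aminoacyl-tRNA synthetases, which ATF4 also drives in part, none rose and KARS1 fell.

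Among the genes that fell, the list with the most calls was that of complexes II to V of the mitochondrial respiratory chain. Of 41 tested nuclear-encoded subunits of complexes II to V, 7 fell, none rose and 39 had a lower fitted level, with a median of -0.17. Falls made up 1.5% of all tested genes. UQCR10, a small subunit of complex III, was at 91.4, 87.5, 72.99 and 91.5 CPM in control, 65.4, 66.1, 67.1 and 67.7 CPM with PFBA and 63.3, 83.6, 67.7 and 64.8 CPM with PFHxA (log2 fold change -0.33, SE 0.0752, adjusted p = 0.0397). The groups overlapped through 1 exposed library, PFHxA b, and 1 control, control c. ATP5MC3, a subunit of the proton-driven ring of ATP synthase, was at 326 ± 14.3 CPM in control, 282 ± 3.1996 CPM with PFBA and 307 ± 10.7 CPM with PFHxA (log2 fold change -0.15, adjusted p = 0.0409). UQCRC2, a core subunit of complex III, was at 185 ± 5.61 CPM in control, 171 ± 7.6998 CPM with PFBA and 164 ± 1.74 CPM with PFHxA (log2 fold change -0.15, adjusted p = 0.0409). ATP5PD, ATP5PB, UQCRQ and COX7B were the other members called. Of 38 complex I subunits, 3 fell and none rose, with a median of -0.13. NDUFA2 was at 53.3, 54.7, 56.8 and 61.8 CPM in control, 46.6, 44.3, 44.4 and 48.9 CPM with PFBA and 51.2, 53.8, 52.8 and 49.8 CPM with PFHxA (log2 fold change -0.21, SE 0.0470, adjusted p = 0.0382). The PFBA libraries were the lowest, and PFHxA b overlapped with control a. NDUFS3, a core subunit, was at 55.7 ± 3.11 CPM in control, 48.9 ± 1.48 CPM with PFBA and 48.5 ± 2.68 CPM with PFHxA (log2 fold change -0.19, adjusted p = 0.0458), with no overlap. NDUFA5 was at 55.2 ± 8.55 CPM in control, 51.3 ± 4.55 CPM with PFBA and 34.2 ± 2.99 CPM with PFHxA (log2 fold change -0.40, adjusted p = 0.0397), and its PFBA libraries overlapped the controls while its PFHxA libraries did not.

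In both of these lists the median was as low with PFBA as with PFHxA: -0.16 and -0.12 for complex I, and -0.19 and -0.17 for complexes II to V. Library by library, the median deviation of complexes II to V from the control mean was -0.05, -0.08, -0.01 and 0.13 in controls a to d, -0.24, -0.24, -0.17 and -0.09 with PFBA and -0.17, -0.16, -0.15 and -0.18 with PFHxA. The exposed libraries were below all controls, and control d was the highest library. Without control d the medians were -0.13 for complexes II to V and -0.09 for complex I, and no member of either list passed. The 13 proteins encoded by mitochondrial DNA went the other way in 12 cases: none passed (edgeR; 7 at an unadjusted p under 0.05, all higher, and 1 by DESeq2), and the median was 0.20. Control d was the lowest library of that list, at -0.35, and without it the median was 0.08.

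Of 74 tested mitochondrial ribosomal proteins, 5 fell and none rose, where 1.5% of all tested genes fell. A lower fitted level was seen in 68, with a median of -0.13 (-0.12 with PFBA, -0.11 with PFHxA). The median deviation of the list from the control mean was 0.13 in control d and -0.03 in each of controls a, b and c. Without control d the median log2 fold change was -0.10 and no member was called. The part of control d in the result beyond these values was not tested. MRPL1 (chr4:77862520-77952790, a protein of the large subunit) was at 45.2, 43.9, 45.3 and 59.5 CPM in control, 34.3, 32.05, 31.5 and 35.8 CPM with PFBA and 30.6, 36.7, 25.7 and 28.9 CPM with PFHxA (log2 fold change -0.60, SE 0.0964, adjusted p = 0.0276). Control d was far above the other controls for MRPL1. All exposed libraries were below the lowest control, which the naming rule required. MRPL51 was at 90.3, 82.8, 89.9 and 95.3 CPM in control, 77.7, 79.96, 76.5 and 79.01 CPM with PFBA and 79.5, 74.9, 74.1 and 76.8 CPM with PFHxA (log2 fold change -0.21, SE 0.0394, adjusted p = 0.0287), with no overlap. MRPS23 was at 284 ± 30.01 CPM in control, 242 ± 6.41 CPM with PFBA and 236 ± 2.78 CPM with PFHxA (log2 fold change -0.25, adjusted p = 0.0331). MTERF3, a regulator of mitochondrial transcription and ribosome assembly, was at 28.1 ± 0.742 CPM in control, 23.1 ± 1.91 CPM with PFBA and 22.2 ± 1.75 CPM with PFHxA (log2 fold change -0.31, adjusted p = 0.0331). TOMM5, a small subunit of the outer membrane import pore, was at 43.7 ± 4.796 CPM in control, 35.03 ± 2.76 CPM with PFBA and 34.7 ± 2.23 CPM with PFHxA (log2 fold change -0.32, adjusted p = 0.0379). MTERF3 and TOMM5 fell by like amounts with each acid.

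Of 78 cytosolic ribosomal proteins, 4 fell and none rose, where 1.5% of all tested genes fell. A lower fitted level was seen in 73, with a median of -0.17. Control d lay above the other controls here too, with a median deviation of 0.16 against -0.07, -0.07 and -0.02 in controls a, b and c, and PFBA d at -0.00 was above those 3. Without control d the median log2 fold change was -0.10 and no member was called. RPL12 was at 877 ± 48.5 CPM in control, 781 ± 52.04 CPM with PFBA and 766 ± 2.67 CPM with PFHxA (log2 fold change -0.18, adjusted p = 0.0453) and RPL36A at 16.2 ± 0.601 CPM in control, 14.4 ± 0.481 CPM with PFBA and 11.96 ± 1.24 CPM with PFHxA (log2 fold change -0.30, adjusted p = 0.0382). RPL26 was also called. Ribosomal protein genes have many processed copies in the genome, and how reads of such copies were assigned is not given in the sources used here, so these values are uncertain. Of 35 proteasome subunits, 3 fell and none rose, with a median of -0.13, where 1.5% of all tested genes fell. PSMA2, an alpha-ring subunit of the 20S core, was at 139.9 ± 14.4 CPM in control, 116 ± 14.8 CPM with PFBA and 89.2 ± 9.53 CPM with PFHxA (log2 fold change -0.46, SE 0.0873, adjusted p = 0.0317). PSMA4 (log2 fold change -0.31) and PSMA6 (-0.30) belong to the same ring, and all 3 overlapped with the controls.

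Of 28 heat shock chaperones, 3 fell and none rose, where 1.5% of all tested genes fell. Their median was -0.10 (-0.05 with PFBA, -0.15 with PFHxA). HSP90AA1, the stress-inducible HSP90, was at 1488, 1485, 1404 and 1562 CPM in control, 1424, 1353, 1388 and 1406 CPM with PFBA and 1238, 1020.1, 1140.4 and 1118 CPM with PFHxA (log2 fold change -0.24, SE 0.0460, adjusted p = 0.0295). PFBA libraries of HSP90AA1 overlapped the controls and PFHxA ones did not. DNAJA1, a partner of HSP70, was at 350.0 ± 4.78 CPM in control, 328 ± 17.5 CPM with PFBA and 289 ± 12.4 CPM with PFHxA (log2 fold change -0.18, adjusted p = 0.0331). CCT8, a subunit of the TRiC chaperonin, was at 516 ± 39.4 CPM in control, 473 ± 26.5 CPM with PFBA and 411 ± 23.2 CPM with PFHxA (log2 fold change -0.23, adjusted p = 0.0397).

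Of 41 mitosis and spindle genes, 5 fell and none rose, where 1.5% of all tested genes fell. Their median was -0.11 (-0.04 with PFBA, -0.19 with PFHxA). SGO2, a protector of centromere cohesion, was at 22.2, 16.98, 19.6 and 20.5 CPM in control, 18.9, 17.9, 17.9 and 15.8 CPM with PFBA and 13.3, 10.6, 10.7 and 10.2 CPM with PFHxA (log2 fold change -0.50, SE 0.0863, adjusted p = 0.0276). NDC80 of the kinetochore was at 36.7 ± 0.936 CPM in control, 34.8 ± 1.03 CPM with PFBA and 27.1 ± 1.78 CPM with PFHxA (log2 fold change -0.26, adjusted p = 0.0287), and HMMR, a spindle protein and hyaluronan receptor, at 28.99 ± 2.27 CPM in control, 25.8 ± 2.85 CPM with PFBA and 18.6 ± 1.201 CPM with PFHxA (log2 fold change -0.41, adjusted p = 0.0287). DLGAP5 and ECT2 were the other members called. The acids differed for 19 of the 41 members, 18 of them lower with PFHxA. Over all tested genes the acids differed for 10.9%, and 7.07% were lower with PFHxA. HMGB2, a chromatin protein of dividing cells named because it passed with the GC and length trend removed, was at 378, 381, 378 and 389 CPM in control, 346, 344, 338 and 368 CPM with PFBA and 318, 286, 282 and 277 CPM with PFHxA (log2 fold change -0.26, SE 0.0390, adjusted p = 0.0276). HAUS1, a subunit of the augmin complex that branches spindle microtubules, was at 40.3, 37.5, 39.3 and 46.1 CPM in control, 35.3, 31.9, 33.4 and 35.2 CPM with PFBA and 31.4, 27.8, 26.7 and 29.96 CPM with PFHxA (log2 fold change -0.38, SE 0.0615, adjusted p = 0.0276). All its exposed libraries were below the controls, which the naming rule required. CETN3, a centrin of the centrosome, was at 26.1 ± 1.48 CPM in control, 20.4 ± 1.27 CPM with PFBA and 16.5 ± 4.08 CPM with PFHxA (log2 fold change -0.51, adjusted p = 0.0375). Of 43 DNA replication genes none passed (edgeR; 9 at an unadjusted p under 0.05, and 2 by DESeq2), with a median of -0.02.

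Other genes named by rule among the falls were spread over many functions. PMM1, a phosphomannomutase of sugar metabolism, was at 22.2, 22.8, 23.99 and 21.02 CPM in control, 16.9, 16.5, 17.4 and 17.6 CPM with PFBA and 18.9, 17.2, 18.1 and 20.2 CPM with PFHxA (log2 fold change -0.34, SE 0.0564, adjusted p = 0.0276). Both acids' libraries were below every control, and their own ranges overlapped. INPP1, an inositol polyphosphate phosphatase, was at 7.36 ± 1.91 CPM in control, 5.04 ± 0.330 CPM with PFBA and 4.81 ± 0.356 CPM with PFHxA (log2 fold change -0.58, adjusted p = 0.0430). POGLUT1, which adds glucose to EGF repeats of Notch receptors, was at 25.9 ± 1.04 CPM in control, 21.2 ± 1.12 CPM with PFBA and 21.2 ± 1.66 CPM with PFHxA (log2 fold change -0.28, adjusted p = 0.0331). SNRPE, a core protein of spliceosomal particles, was at 36.1 ± 3.496 CPM in control, 30.1 ± 2.798 CPM with PFBA and 25.8 ± 1.88 CPM with PFHxA (log2 fold change -0.37, adjusted p = 0.0316). RBX1, the RING subunit of cullin ubiquitin ligases, was at 65.8 ± 5.503 CPM in control, 54.96 ± 5.64 CPM with PFBA and 54.6 ± 0.4995 CPM with PFHxA (log2 fold change -0.26, adjusted p = 0.0439). TXNDC9, a thioredoxin-like protein, was at 40.6 ± 3.89 CPM in control, 34.04 ± 2.11 CPM with PFBA and 29.4 ± 1.28 CPM with PFHxA (log2 fold change -0.36, adjusted p = 0.0276), and PIN4, a parvulin-type prolyl isomerase, at 15.6 ± 0.284 CPM in control, 12.2 ± 1.11 CPM with PFBA and 13.1 ± 0.808 CPM with PFHxA (log2 fold change -0.30, adjusted p = 0.0379). The rule that named these genes required each to be lower in every exposed library than in any control.

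In the lists of lipid, inflammatory and xenobiotic genes the counts of calls were 0 to 2, too few to set against the 2.62% called over all genes. Of 34 tested genes of fatty acid oxidation and other PPAR targets, 1 rose and none fell, with a median of -0.00. That gene was CPT1A, the carnitine transferase that admits long fatty acids to mitochondria, at 70.2, 67.6, 69.3 and 64.9 CPM in control, 77.9, 72.6, 73.2 and 74.1 CPM with PFBA and 85.7, 82.2, 89.9 and 92.8 CPM with PFHxA (log2 fold change 0.25, SE 0.0411, adjusted p = 0.0276), above the controls in each exposed library; it is named as the 1 call of its list. In the cholesterol list of 27, 1 rose and 1 fell. The latter was IDI1, an isomerase of isoprenoid synthesis, at 87.3, 86.9, 88.3 and 96.6 CPM in control, 79.4, 76.7, 83.02 and 81.8 CPM with PFBA and 76.3, 73.9, 75.5 and 73.4 CPM with PFHxA (log2 fold change -0.21, SE 0.0380, adjusted p = 0.0287). Among 27 NF-kB and inflammatory genes, TNFAIP3 rose and the chemokine CCL20 fell, the latter from 16.5 ± 0.647 CPM to 15.5 ± 1.13 CPM with PFBA and 10.9 ± 1.42 CPM with PFHxA (adjusted p = 0.0382). The xenobiotic list held 1 call of 19, AHR. Single falls were counted among the interferon-stimulated genes (IFIT1 of 38), NRF2 targets (TXN of 27), fatty acid synthesis (ELOVL6 of 21) and p53 targets (1 of 26), and 1 rise among the genes of the unfolded protein response (ERN1 of 24). No gene was called (edgeR) in the lists of metallothioneins, lysosome and autophagy, glycolysis and hypoxia, cell junctions, splicing factors, nuclear non-coding RNAs, histones, and ion and water transport, where the number at an unadjusted p under 0.05 was 2 of 9, 10 of 29, 6 of 32, 4 of 25, 6 of 36, 4 of 23, 1 of 29 and 3 of 19. Of these, 1, 10, 2, 4, 1, 1, 0 and 3 were higher and the others lower. Over all tested genes 19.8% were under that cut, 8.81% higher and 11% lower. DESeq2 called 1, 3, 2, 1, 2, 2, 0 and 0 members of these lists, and 1082 of all 16554 tested genes.

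**Figure D4:**
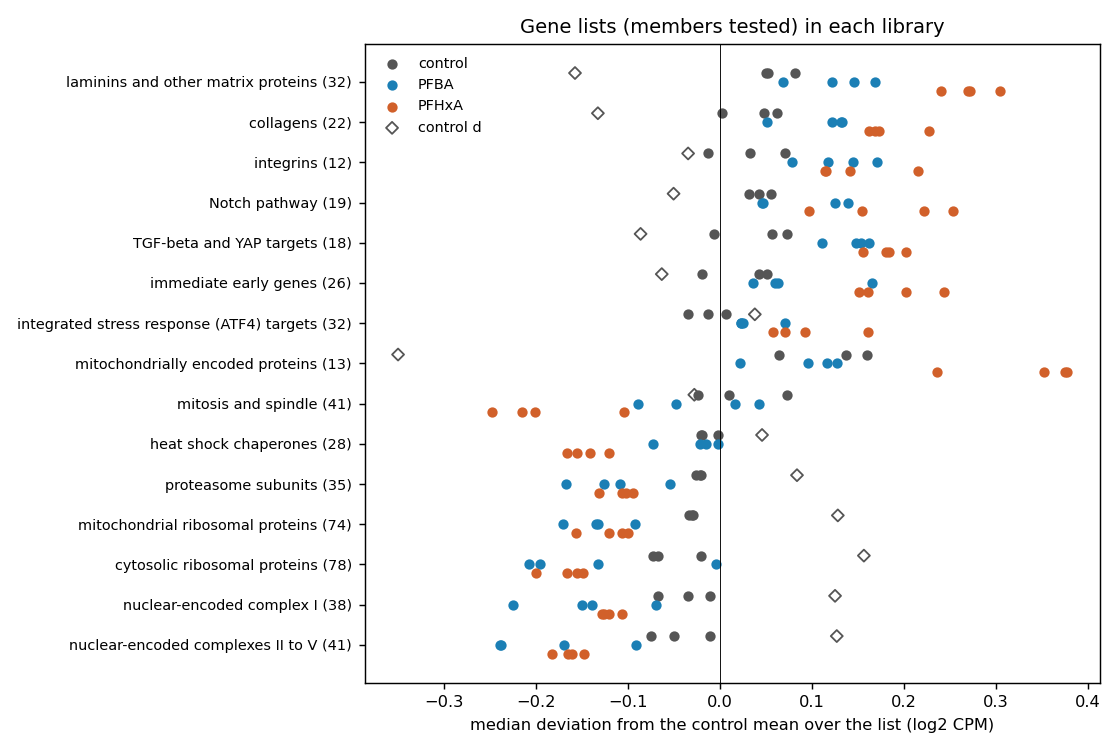
Median over the tested members of each list (number in brackets) of the deviation from the control mean on the log2 CPM scale, 1 point per library; control d is drawn as an open diamond. In the respiratory chain, mitochondrial ribosome and proteasome lists all exposed libraries lie below all controls, and control d lies farthest from the other controls in the mitochondrially encoded list at -0.35.

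The fitted difference between PFHxA and PFBA is taken between exposed libraries, but its spread was estimated over all 12 libraries, and the shared calls were chosen partly on the same exposed libraries. It compares 1 pair of compounds at the same dose and time, which differ in the length of the perfluoroalkyl chain. Over all tested genes 1806 differed between the acids (10.9%), 636 higher (3.84%) and 1170 lower (7.07%) with PFHxA. The number was 2187 without control d and 1035 without PFHxA b. Among the 426 shared calls 234 differed (54.9%): 78 of those that rose and 156 of those that fell, and in each of the 234 the larger change was that of PFHxA. The other 192 were not told apart, 100 higher and 92 lower, and PFBA gave the larger fitted change in 33 of all 426.

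Among genes that passed the pooled test, 5 were named for the smallest adjusted p between the acids. Their log2 fold changes were between -0.02 and 0.09 with PFBA. Further genes, SLC7A5 and RB1CC1 among them, tied with these 5 at an adjusted p of 0.00116 (edgeR), so the choice within the tie was arbitrary. PIBF1, a centrosomal protein, was at 56.1, 57.5, 55.7 and 57.04 CPM in control, 59.04, 54.8, 52.4 and 56.3 CPM with PFBA and 39.8, 33.3, 29.4 and 36.9 CPM with PFHxA. The PFBA libraries of PIBF1 lay around the controls and the PFHxA libraries far below them (log2 fold change -0.02 and -0.70; difference -0.67, 95% interval -0.84 to -0.51, adjusted p = 0.00116). SMC2, a core subunit of condensin, was at 66.9 ± 4.39 CPM in control, 66.4 ± 2.99 CPM with PFBA and 46.4 ± 3.701 CPM with PFHxA (difference -0.52, interval -0.65 to -0.38). The antisense RNA OTUD6B-AS1, uncertain for the reason given for the other antisense RNAs, was at 28.2 ± 1.71 CPM in control, 27.7 ± 1.796 CPM with PFBA and 16.3 ± 2.15 CPM with PFHxA (difference -0.77, interval -0.96 to -0.58). SSX2IP, an adhesion and centrosome protein, and ZNF92, a zinc finger factor, passed the pooled test with PFBA values of 0.00 and 0.09 and are not shared calls. SSX2IP was at 1191, 1179, 1175 and 1216 CPM in control, 1177, 1176, 1179 and 1244 CPM with PFBA and 976, 931, 924 and 908 CPM with PFHxA (difference -0.35, interval -0.43 to -0.28). These 2 belong to 7 genes that passed the pooled test with opposite signs, all lower on average. The others, given as a count of 5 and named after their values were seen, were TTC37, LTN1, KTN1, SPINK5 and RB1CC1, with log2 fold changes between 0.00 and 0.05 with PFBA and between -0.54 and -0.35 with PFHxA.

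For 3 of the genes named for a large shared change, picked here after their values were seen, the difference between the acids was near 0, and its interval bounds it. It was -0.02 for TNFAIP3 (95% interval -0.25 to 0.21), 0.00 for POGLUT1 (-0.14 to 0.15) and -0.01 for TOMM5 (-0.19 to 0.16). For PMM1 and NDUFA2 the fitted fall was larger with PFBA (0.12, -0.02 to 0.26, and 0.17, 0.05 to 0.29). An interval that holds 0 does not show that the acids act alike.

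Shared calls were not spread evenly over base composition. The median GC content of the longest transcript was 53.8% for the higher calls, 40.03% for the lower ones and 48.6% for genes not called, and the median transcript length was 7387, 2854 and 3230 nt. Of genes between 35% and 40% GC, 4.74% were lower calls and 0.0451% higher ones, and of genes between 55% and 60%, 0.247% and 1.77%. The median change of all genes in these bins was 0.01 and -0.02 with PFBA, and -0.19 and 0.09 with PFHxA. Shared calls on which the acids differed lay farther out, at a median of 58.5% for the higher and 38.6% for the lower, than those not told apart, at 50.5% and 42.9%. With the trend over GC content and length removed from each library, the median size of the 426 changes went from 0.24 to 0.15 and the acids differed for 35 of them (8.22%, against 0.882% of all genes). The part of this trend in the calls was not tested beyond that fit. JUN, GDF15, SLC38A2, IGF2R and UBR4 were among the 6 genes that then passed as higher, and HMGB2 was the 1 that passed as lower.

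**Figure D5:**
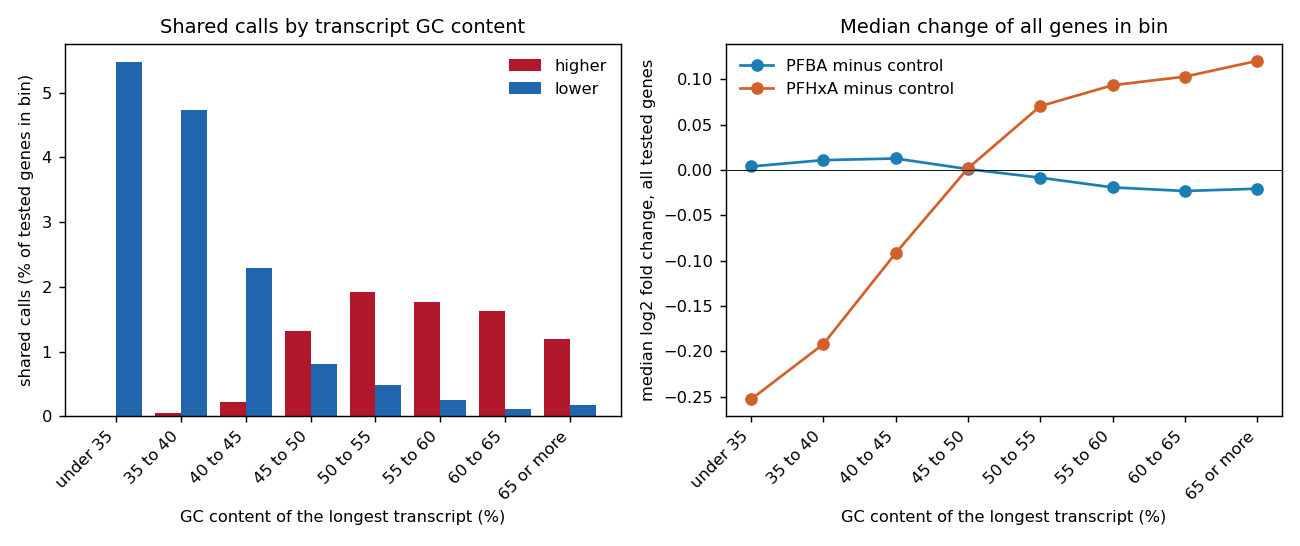
Left, percent of tested genes in each bin of transcript GC content that were higher (red) or lower (blue) shared calls. Right, median log2 fold change of all tested genes of the bin with each acid; the PFHxA line runs from -0.25 under 35% GC to 0.12 at 65% or more, while the PFBA line stays within 0.03 of 0.

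Promoters of the calls are shown for 2 genes that rose and 2 that fell, chosen after their values were seen to show the elements counted below: the first 2 lack the ETS core and the last 2 hold it. The sequences are the 250 bases before the RefSeq start (RefSeq, GRCh38.p14), 5′ to 3′ on the gene's strand. Capitals mark matches to any of 10 short motifs searched on both strands. IGF2R is at chr6:159968832-159969081 on the plus strand, LAMA5 at chr20:62367313-62367562 on the minus strand, DNAJA1 at chr9:33025023-33025272 on the plus strand and ATP5PD, the d subunit of the ATP synthase stalk, at chr17:75046970-75047219 on the minus strand. For DNAJA1 and ATP5PD the RefSeq start lies 62 and 16 bases inside the gene of the table.
IGF2R: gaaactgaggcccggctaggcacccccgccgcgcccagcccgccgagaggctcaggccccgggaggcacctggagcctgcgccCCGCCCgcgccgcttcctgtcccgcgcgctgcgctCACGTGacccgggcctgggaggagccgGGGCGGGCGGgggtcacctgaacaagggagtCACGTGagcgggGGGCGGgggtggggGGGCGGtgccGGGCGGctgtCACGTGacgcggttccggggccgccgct
LAMA5: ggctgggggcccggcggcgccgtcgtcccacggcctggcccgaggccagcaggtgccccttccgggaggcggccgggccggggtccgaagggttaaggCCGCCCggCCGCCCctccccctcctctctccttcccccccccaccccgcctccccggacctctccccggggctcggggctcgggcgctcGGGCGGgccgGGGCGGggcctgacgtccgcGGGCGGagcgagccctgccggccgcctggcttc
DNAJA1: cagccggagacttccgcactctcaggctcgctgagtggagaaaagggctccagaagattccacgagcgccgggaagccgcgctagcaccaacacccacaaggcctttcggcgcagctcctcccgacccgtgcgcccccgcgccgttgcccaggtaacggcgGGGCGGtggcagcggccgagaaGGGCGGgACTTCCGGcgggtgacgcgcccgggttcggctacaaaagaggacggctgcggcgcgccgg
ATP5PD: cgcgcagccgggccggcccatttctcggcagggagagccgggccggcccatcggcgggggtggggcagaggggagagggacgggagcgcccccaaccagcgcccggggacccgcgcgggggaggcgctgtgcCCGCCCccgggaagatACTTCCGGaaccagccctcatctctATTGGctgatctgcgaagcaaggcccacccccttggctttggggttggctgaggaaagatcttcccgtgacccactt
The IGF2R window holds 3 matches to the E-box CACGTG and 6 to the GC box GGGCGG, a pair of which overlap, and its GC content is 79.2%. The LAMA5 window holds 5 GC boxes at 82.8% GC. The DNAJA1 and ATP5PD windows each hold the ETS core CCGGAAGT on the strand opposite to the gene. The marked stretches end 53 and 95 bases before the start, and both windows are at 70.8% GC.

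Over all calls with a RefSeq promoter window, which runs from 250 bases before to 50 bases after the start (145 of 178 higher, 192 of 248 lower and 11512 of 16554 tested genes), the ETS core CCGGAAGT was present in 17.2% of the lower calls, 4.14% of the higher ones and 8.46% of all. The CCAAT box CCAAT was present in 45.3%, 31.0% and 36.4%, the GC box GGGCGG in 67.7%, 77.2% and 69.2%, the TATA box TATAAA in 10.4%, 5.52% and 5.92%, and the YY1 core AAGATGGCG in 7.29%, 3.45% and 3.79%. The AP-1 motif TGANTCA was present in 4.17%, 4.14% and 4.61%, the CRE TGACGTCA in 4.69%, 3.45% and 3.21%, the CEBP-ATF element TGATGNAAN in 3.12%, 1.38% and 1.63%, the E-box CACGTG in 9.9%, 10.3% and 9.95%, and the NRF1 core GCGCATGC in 6.77%, 4.83% and 5.45%. The promoters of the higher calls were richer in GC, with a median of 70%, against 60.3% for the lower calls and 65.3% for all tested genes. These are shares of letters in a fixed window, given as a description with no test.

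In a pair of shared calls 1 exposed library did not follow its group. RAPGEFL1 (chr17:40177010-40195656, plus strand), a guanine nucleotide exchange factor-like protein, was at 52.2, 49.4, 49.8 and 47.5 CPM in control, 29.9, 29.2, 28.8 and 28.9 CPM with PFBA and 30.8, 50.7, 30.4 and 30.5 CPM with PFHxA: 7 exposed libraries lay close together well below the controls, and PFHxA b was at the control level (log2 fold change -0.63, SE 0.120, adjusted p = 0.0331; adjusted p = 5.07e-06 without PFHxA b). FRS2 (chr12:69470349-69579789), an adaptor of FGF receptors, was at 58.3, 56.6, 56.01 and 55.6 CPM in control, 56.7, 55.5, 57.1 and 22.6 CPM with PFBA and 20.4, 18.9, 20.7 and 19.2 CPM with PFHxA: PFBA a, b and c were at the control level and PFBA d was beside the PFHxA libraries (log2 fold change -0.88, SE 0.199, adjusted p = 0.0491; log2 fold change -0.76, adjusted p = 2.48e-06 without PFBA d). For GCH1 (chr14:54842008-54902852), the first enzyme of tetrahydrobiopterin synthesis, it was control b that lay with the exposed libraries: it was at 4.94, 17.4, 4.15 and 5.37 CPM in control, 20.6, 17.1, 19.9 and 20.6 CPM with PFBA and 14.97, 15.5, 17.5 and 17.6 CPM with PFHxA, and it did not pass (log2 fold change 1.16, SE 0.351, adjusted p = 0.103; adjusted p = 5.64e-06 without control b). These 3 genes are named for this pattern, seen in the values. Its cause was not tested.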

How the data were processed

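RNA-seq of 12 libraries was read from 1 table with a raw read count per Ensembl gene and library, as deposited by the authors. Reads were aligned with HISAT2 2.0.4 and the build was GRCh38, per the submitters' processing notes; the counting program, annotation, filters and strand setting are items not given in the sources used here. In the same table, 12 columns of depth- and length-scaled values were not used. Column letters a to d name the libraries and are not tied to the numbers of the labels, and columns were assigned to groups by their prefix (Ck was read as control). Same-letter libraries did not vary together (correlations of their deviations -0.0896 to 0.0625), so no pairing was used. No libraries of a group held identical counts.

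Genes were kept by edgeR's filterByExpr (minimum count 10), scaled by TMM and fitted with edgeR 4.0.16 (robust quasi-likelihood test, R 4.3.3), with 1 mean per group. The pooled contrast gave each acid a weight of 0.5 against control. P-values were adjusted by Benjamini-Hochberg over the 16554 tested genes, at a threshold of 0.05, and intervals are at 95%. All log2 fold changes, standard errors and adjusted p-values are from this fit unless another is named; library measures were tested by two-sided exact permutation. The script was tested on simulated counts.

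Genes were named by rule. Among calls of at least 1 CPM whose 8 exposed libraries all lay on 1 side of the controls, these were the 12 higher and 12 lower with the largest smaller change of both acids. To them were added up to 3 with the smallest p of each list with at least 2 calls. A last 5 were pooled calls with the smallest adjusted p between the acids, where row order decided among ties. Other names were chosen after their values were seen, as marked. Some genes that the rule or the lists name are not reported here, and counts include them. The comparison, gene lists and motifs were chosen with earlier results of these data known. GC content and length are those of the longest transcript, and promoters are from RefSeq. The other settings tried were upper-quartile or RLE scaling, count filters left out or made stricter, DESeq2 1.42.0, limma-voom 3.58.1, a 1.5-fold minimum, a letter block, a fit of 2 groups, thinning to the smallest total and leaving out each library; removal of each library's GC and length trend without control d was added after seeing the data.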

Additional observations from a re-analysis of the deposited data

Results flagged for a closer look

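Within groups of 4, a library was marked where its gap to the nearest of the others exceeded the 95% critical value of Dixon's ratio of that gap to the group's range. Of 204 groups tested 13 were marked, and chance marks about 1 in 20. Control d held 6 of the 13. It was the lowest control for HECTD4, at 66.1 CPM against 77.8 to 78.7 CPM, and for SLC7A1, at 248 CPM against 273 to 278 CPM. It was the highest control for MRPL1, at 59.5 CPM against 43.9 to 45.3 CPM, for TXNDC9, at 46.4 CPM against 38.1 to 39.1 CPM, for CCT8, at 575 CPM against 495 to 498 CPM, and for IDI1, at 96.6 CPM against 86.9 to 88.3 CPM.

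Control c was below the other controls for TNFAIP3, at 1.83 CPM against 2.10 to 2.13 CPM. The antisense RNA PAX8-AS1 was at 17.7 CPM in PFBA d against 12.5 to 12.8 CPM in the other PFBA libraries, and at 13.99 CPM in PFHxA d against 18.1 to 18.4 CPM. SSX2IP was at 1244 CPM in PFBA d against 1176 to 1179 CPM. SLC7A5 was at 192 CPM in PFHxA c against 182 to 183 CPM. SGO2 was at 13.3 CPM in PFHxA a against 10.2 to 10.7 CPM, and mitochondrial genes held 11.7% of the counts of that library against 12.7% to 12.9% in the other PFHxA libraries.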

How the results depend on the processing

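The pooled call count of 433 (178 higher and 248 lower shared calls) was 416 (185 and 226) with RLE scaling, 425 (235 and 182) with upper-quartile scaling, 419 (161 and 247) without a count filter, 581 (255 and 314) with a stricter one, 423 (174 and 241) with limma-voom and 413 (170 and 234) after thinning. DESeq2 called 1082 (461 and 564), with 508 shared calls that differed between the acids against 234 here. With a 1.5-fold minimum all counts were 0: pooled calls, shared calls in each direction, calls between the acids and shared calls that differed. With the GC and length trend removed they were 7, 6 higher, 1 lower, 146 between the acids and 3 that differed; without control d as well they were 0, 0, 0, 200 and 0. The fit of 2 groups called 0, and the requirement that each acid pass called 0 higher and 0 lower.

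Without 1 library, pooled calls ran from 0 to 717, higher shared calls from 0 to 232, lower ones from 0 to 392, calls between the acids from 1035 to 2187 and shared calls that differed from 0 to 350.0. The smallest adjusted p was 0.0645 without control a, 0.0507 without PFHxA c and 0.0538 without PFHxA d. The exposed minus control difference in total count ran from -314989 without control d to 1207370 without control a, and that in detected genes from -23.75 to 203.6. No gene named by rule reversed its fitted direction in any alternative. Fits that leave out 1 library share most of their data, so a kept sign says little about stability. The collagen list lost its rise in the median when control d was left out and the trend removed, as given above. With the column letter as a replicate block 561 genes passed (195 and 341 shared calls); the letters give no pairing, and 3 of 12 libraries correlated best with their own letter.

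The part of control d and of the libraries' trends over GC content and length in single calls was not tested beyond the fits above, and the controls' culture time and vehicle are not recorded in the labels.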

Other observations

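Some genes fell on 2 separate levels that did not follow the groups. Among 10072 genes with a mean of at least 10 CPM, 220 had their 12 libraries in 2 sets separated by at least 0.5 on the log2 scale and by at least 2 times the wider set's range. In 92 of them 1 library stood alone. In the other 128 each set held 2 or more libraries, every one of these splits divided at least 1 group, and 0 of them matched the groups. Of the 220, 2 were shared calls, RAPGEFL1 and FRS2, and GCH1 was a further example. KIF20B, a mitotic kinesin, does not meet this rule, and its lowest libraries are all of PFHxA. It is named because its call hung on 1 library. KIF20B was at 66.4 CPM in PFHxA a, 41.6, 40.95 and 42.5 CPM in PFHxA b, c and d, and 78.5 to 95.9 CPM in the other 8 libraries. It passed without PFHxA a (log2 fold change -0.52, adjusted p = 0.00141, edgeR) and not with that library (adjusted p = 0.0779). These values are given with no explanation.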
